A study of Rattus norvegicus and Bos taurus with 6 samples.

Results

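The genes described here are 9 ionotropic and metabotropic glutamate receptor genes, Grid1, Gria3, Gria4, Grik1, Grik2, Grik4, Grin2a, Grm7 and Grm8, matched by symbol in any case in 6 single-nucleus RNA-seq libraries of adipose tissue. All 9 were found once in each library, among 38697 genes in the rat Parse files, 25629 in the rat 10x file and 36075 in the cow file. The genes were chosen because Grid1 was far higher in white than in brown rat Parse libraries and nearly absent on 10x. They were thus chosen by their measured level in these libraries, the unique molecular identifiers (UMIs) of a gene scaled to 1000000 per library (CPM), so the Grid1 values are given as a description, and the question is whether the other 8 follow.

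The rats were male Dahl SS (SS/HsdMcwiCrl) on a normal diet and the cow tissue was from female lactating Holsteins, with snap-frozen tissue and 1 library per condition. White rat fat is represented by mesenteric perivascular fat (mesPVAT), run on both 10x and Parse, and retroperitoneal fat (RP, Parse), brown rat fat by thoracic aortic perivascular fat (taPVAT, Parse) and subscapular brown fat (BAT, Parse), and cow fat by flank subcutaneous white fat (Parse). White samples were spun faster than taPVAT during isolation, and the 10x nuclei were isolated by another protocol and sorted on DAPI and belong to batch 1 of the labels, all Parse libraries to batch 2, so depot or platform, isolation and depth cannot be told apart. Without replicates no test was possible. Intervals are exact 95% intervals and cover counting error only.

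Total UMIs were 1656726 in mesPVAT Parse, 845316 in RP, 5100216 in taPVAT, 6317970 in BAT, 1237543 in mesPVAT 10x and 16827260 in cow, over 3028, 2805, 2708, 2699, 5887 and 2297 nuclei. The median UMIs per nucleus were 346, 213, 1246, 1706, 161 and 3530 in the same order, and no barcode was shared between any pair of libraries. Ucp1, the uncoupling protein of brown fat, was at 1782 and 2072 CPM in taPVAT and BAT and at 63.4 and 89.9 in mesPVAT and RP, in the direction of the labels.

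Glutamate is the main excitatory transmitter of the brain. AMPA (Gria), kainate (Grik) and NMDA (Grin) receptors are ion channels opened by glutamate. The delta receptor Grid1 belongs to the same family by sequence but acts with cerebellins and neurexins at synapses. Grm7 and Grm8 are group III metabotropic receptors that couple to inhibitory G proteins. In the rat genome these genes are long: in RefSeq (GRCr8), Grid1 spans 749 kb on chromosome 16, Grm8 926 kb and Grm7 882 kb on chromosome 4, Grik2 698 kb on chromosome 20, Gria4 475 kb and Grik4 427 kb on chromosome 8, Grin2a 424 kb on chromosome 10, Grik1 401 kb on chromosome 11, and Gria3 266 kb on the X chromosome. Other RefSeq genes lie inside the span of 8 of the 9, pseudogenes, microRNAs and non-coding RNAs for the most part. The exception is Gria3.

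The promoters of the 2 members with the largest white over brown ratio, Grm7 and Grik1, and of the member with the smallest, Grik2, are shown to let the reader compare them. Each is the 300-base RefSeq promoter entry of the gene in GRCr8, which need not sit at the outermost start of the gene, with every CG dinucleotide in capitals (CG reads the same on both strands). The Grm7 promoter is chr4:145286476-145286775 on the plus strand, that of Grik1 is chr11:41056454-41056753 and that of Grik2 is chr20:54415234-54415533, both on the minus strand. The Grik1 window lies wholly inside the listed span of the gene.
Grm7: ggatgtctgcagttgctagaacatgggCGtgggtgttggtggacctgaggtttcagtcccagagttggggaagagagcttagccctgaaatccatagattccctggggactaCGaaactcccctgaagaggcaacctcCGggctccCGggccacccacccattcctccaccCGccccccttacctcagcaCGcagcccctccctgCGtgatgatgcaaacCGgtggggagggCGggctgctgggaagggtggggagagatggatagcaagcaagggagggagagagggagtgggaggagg
Grik1: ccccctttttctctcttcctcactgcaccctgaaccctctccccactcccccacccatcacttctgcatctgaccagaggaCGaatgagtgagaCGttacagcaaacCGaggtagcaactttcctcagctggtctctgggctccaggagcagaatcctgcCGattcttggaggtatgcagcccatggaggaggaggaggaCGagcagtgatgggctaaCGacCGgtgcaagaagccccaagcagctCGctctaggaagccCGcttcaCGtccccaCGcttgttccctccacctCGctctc
Grik2: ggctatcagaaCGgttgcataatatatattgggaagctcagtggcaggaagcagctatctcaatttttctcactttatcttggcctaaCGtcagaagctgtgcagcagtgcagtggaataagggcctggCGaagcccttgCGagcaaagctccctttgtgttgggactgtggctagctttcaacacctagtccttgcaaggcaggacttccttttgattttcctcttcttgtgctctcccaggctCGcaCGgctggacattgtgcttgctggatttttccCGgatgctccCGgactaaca
These hold 9, 12 and 8 CG dinucleotides. Of 33469 rat promoters of this length, 44.3%, 37.1% and 47.6% hold at least as many, so none of the 3 stands apart in this count.

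All 9 genes had a higher CPM in both white than in both brown rat Parse libraries. The delta receptor gene Grid1 was at 248 CPM (95% interval 225 to 273) in mesPVAT and 427 (384 to 473) in RP, while taPVAT stood at 38.4 (33.2 to 44.2) and BAT at 27.1 (23.2 to 31.4). Grid1 was at 11.3 on 10x, from 14 UMIs, and at 212 (205 to 219) in cow. RP was the highest and 10x the lowest library, and no neighbours in this order had overlapping intervals.

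Among the AMPA receptor subunits, Gria3 was at 40.4 CPM in mesPVAT, 68.6 in RP, 9.61 in taPVAT, 7.76 in BAT, 8.89 on 10x and 32.3 in cow. Gria4 was at 135, 159.7, 29.6, 19.6, 8.08 and 60.8 in the same order. Both had white intervals above the brown ones, while the 2 brown libraries overlapped for Gria3.

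The kainate receptor subunits Grik1 and Grik2 form channels on their own, while Grik4 needs one of them. Grik1 was at 127, 193, 18.0, 16.9, 4.85 and 33.1 CPM in mesPVAT, RP, taPVAT, BAT, 10x and cow. Grik4 was at 128, 215, 25.1, 25.2, 7.27 and 54.2.

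Grik2 was at 155, 258, 46.7, 72.3, 23.4 and 49.5 CPM in the same order. It was the only member that was higher in BAT (65.9 to 79.3) than in taPVAT (40.9 to 53.0) without overlap of the intervals, and it had the highest level on 10x, from 29 UMIs.

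The NMDA receptor subunit Grin2a was at 140.0, 276, 29.8, 25.96, 6.46 and 40.2 CPM in mesPVAT, RP, taPVAT, BAT, 10x and cow. The metabotropic receptor genes Grm7 (280.1, 405, 35.1, 34.5, 21.8 and 69.8) and Grm8 (276, 406, 41.8, 33.2, 13.7 and 99.2) had white levels close to that of Grid1. For these 3 genes the white libraries were above both brown libraries, and RP was above mesPVAT.

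**Figure D1:**
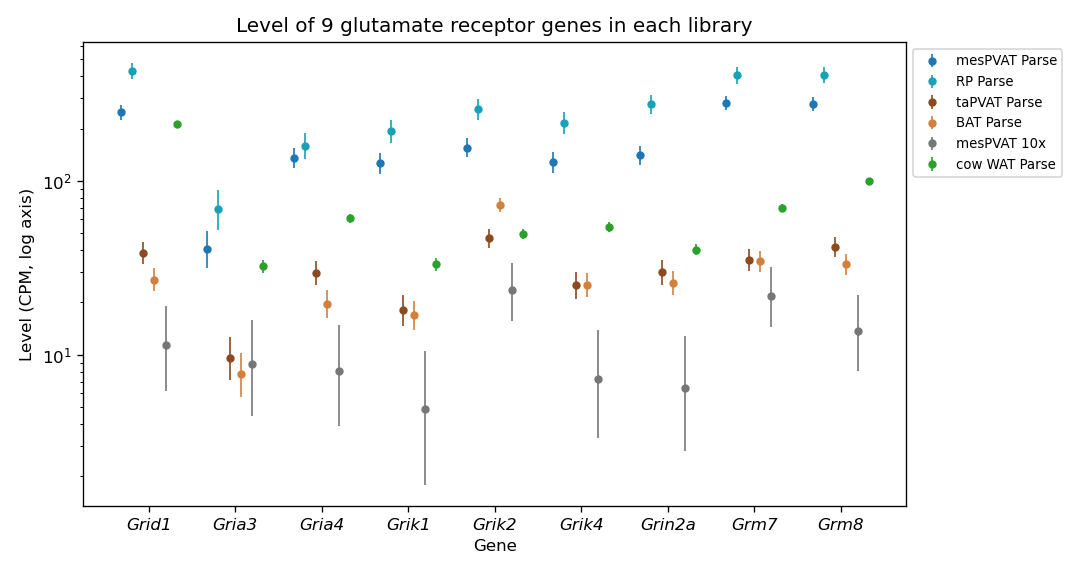
Level of each gene in each library, in CPM on a log axis, as points with exact 95% Poisson intervals. Both white Parse libraries lie above both brown ones for all 9 genes, and mesPVAT 10x lies lowest for 8 of them; for Gria3 it lies between taPVAT (9.61) and BAT (7.76).

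As the lower white over the higher brown library, Grm7 differed most, at 7.98-fold (6.70 to 9.54), followed by Grik1 at 7.03 (5.47 to 9.08), Grm8 at 6.61 (5.60 to 7.81) and Grid1 at 6.46 (5.43 to 7.69). Grik4 was at 5.08, Grin2a at 4.70, Gria4 at 4.57 and Gria3 at 4.21. Grik2 differed least, at 2.14 (1.83 to 2.504), and its interval reached below 2. It was at 1.98 with CPM computed without mitochondrial genes and the top gene, and at 1.92 within the study's limits on nuclei. Without mesPVAT the ratio of Grid1 was 11.1. So 9 of 9 members were at least 2-fold higher in white, and 0 at least 2-fold lower. The same limit was passed upward by 44.3% of the 19352 genes with a mean of at least 5 CPM, and downward by 6.3%. Among the 351 of these genes with a RefSeq span of at least 400 kb, as 8 of the members have, 63.2% passed it upward.

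The size of the difference depended on the scale. For Grik2 and Gria4 the lower white library fell below the higher brown one on other scales. On the CPM scale the median gene was itself 2.05-fold higher as mean white over mean brown. As the lower white over the higher brown library it was at 1.46. With median-of-ratios size factors, 4 of 9 members stayed at least 2-fold higher (Grid1 2.51, Grik1 2.38, Grm7 2.59 and Grm8 2.57). Of all genes, 15.4% passed upward and 37.7% downward. For Grik2 the lower white library was at 0.683 of the higher brown one. Counted as UMIs per nucleus, 0 of 9 passed, with 1.95% of all genes passing upward and 46.3% downward. Grid1 was at 136 and 129 UMIs per 1000 nuclei in mesPVAT and RP against 72.4 and 63.4 in taPVAT and BAT, a ratio of 1.78. The lower white library of Gria4 was then at 0.863 of the higher brown one, and that of Grik2 at 0.459.

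**Figure D2:**
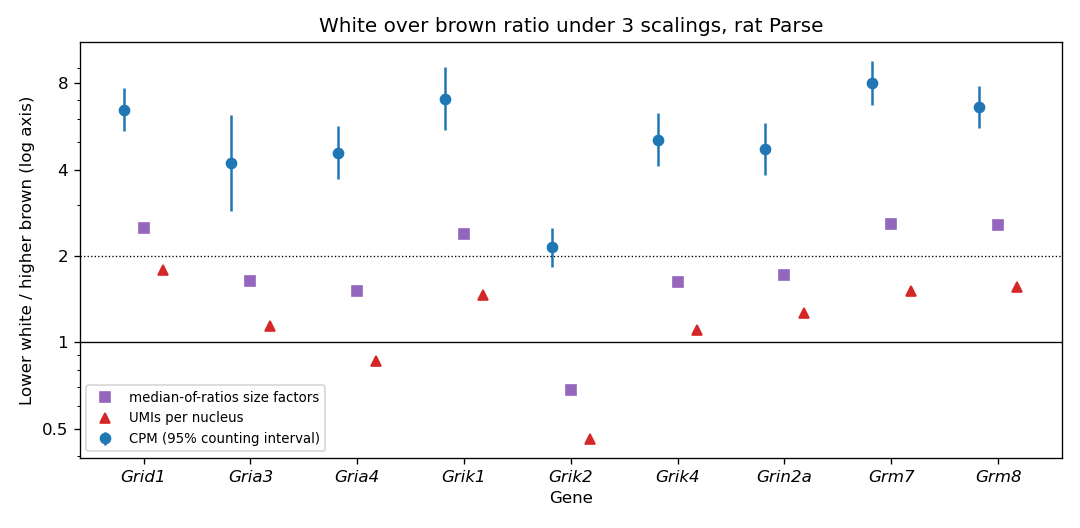
Ratio of the lower white to the higher brown rat Parse library for each gene, on a log axis, in CPM (circles, with exact 95% counting intervals), with median-of-ratios size factors (squares) and per nucleus (triangles). The solid line marks 1 and the dotted line the limit of 2. Grik2 falls from 2.14 to 0.683 and 0.459, and all triangles lie below 2.

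On 10x, all 9 members were at least 2-fold lower on the CPM scale than in the Parse library of the same depot, where 33.6% of 12671 genes tested passed this limit, 22.3% were at least 2-fold higher, and 63.8% of the 334 with a span of at least 400 kb were at least 2-fold lower. Grid1 was 0.0456 of its Parse level (0.0247 to 0.0774), which was used to choose the genes. Grik1 was at 0.0382, Grin2a at 0.0462, Grm8 at 0.0498, Grik4 at 0.0568, Gria4 at 0.0598 and Grm7 at 0.0779. Grik2, at 0.151 (0.0992 to 0.222), and Gria3, at 0.220 (0.105 to 0.419), kept more. The 9 genes together had 131 UMIs on 10x against 2534 in mesPVAT Parse. The builds also differ, with Rnor_6.0 named for 10x, and their part in these values was not tested.

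The share of nuclei with at least 1 UMI depends on the depth of the nuclei, and free RNA can add to it, whose part was not tested. Grid1 was detected in 10.4% (9.37 to 11.6) of mesPVAT, 11.5% of RP, 6.43% of taPVAT, 5.71% of BAT, 0.238% of 10x and 40.7% of cow nuclei. After thinning each nucleus to 200 UMIs, which left out 476, 1302, 0, 0, 3788 and 0 nuclei, the shares were 5.09% (4.27 to 6.02), 8.45% (7.09 to 9.97), 1.07% (0.718 to 1.53), 0.889% (0.571 to 1.32), 0.238% (0.0774 to 0.555) and 3.79% (3.04 to 4.65). At equal depth both white rat shares of Grid1 lay above both brown ones without overlap. The same held for Gria4, Grik1, Grik4, Grin2a, Grm7 and Grm8. For Gria3 both white intervals (0.389 to 1.06 in mesPVAT, 0.461 to 1.47 in RP) overlapped that of taPVAT (0.0814 to 0.482). For Grik2 the mesPVAT interval (1.94 to 3.19) overlapped that of BAT (1.16 to 2.14). The members other than Grid1 ranged at this depth from 0.666% (Gria3) to 5.33% (Grm7) in mesPVAT. In BAT they ranged from 0.148% (Gria3) to 1.59% (Grik2).

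In the Parse libraries Grid1 was found in nuclei of every depth, while on 10x the 219 nuclei of 500 to under 1000 UMIs held 0 Grid1 UMIs. In mesPVAT Parse it was at 344 CPM in nuclei under 200 UMIs, 274 at 200 to under 500, 229 at 500 to under 1000, 157 at 1000 to under 2000 and 327 at 2000 or more. Both brown libraries were lower at each depth that they shared with mesPVAT Parse, by amounts that differed between depths. In nuclei of 200 to under 500 UMIs taPVAT was at 100.2 (57.3 to 163). BAT was there at 56.2 (11.6 to 164), from only 3 Grid1 UMIs. At 2000 or more UMIs taPVAT and BAT were at 26.7 and 21.8. One mesPVAT nucleus with 41374 UMIs held 20 Grid1 UMIs, and the 10 nuclei with most Grid1 UMIs held 17.8% of them. Without the 10 deepest nuclei of each library 8 of the 9 members passed the 2-fold limit, and Grik2 was at 1.90.

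**Figure D3:**
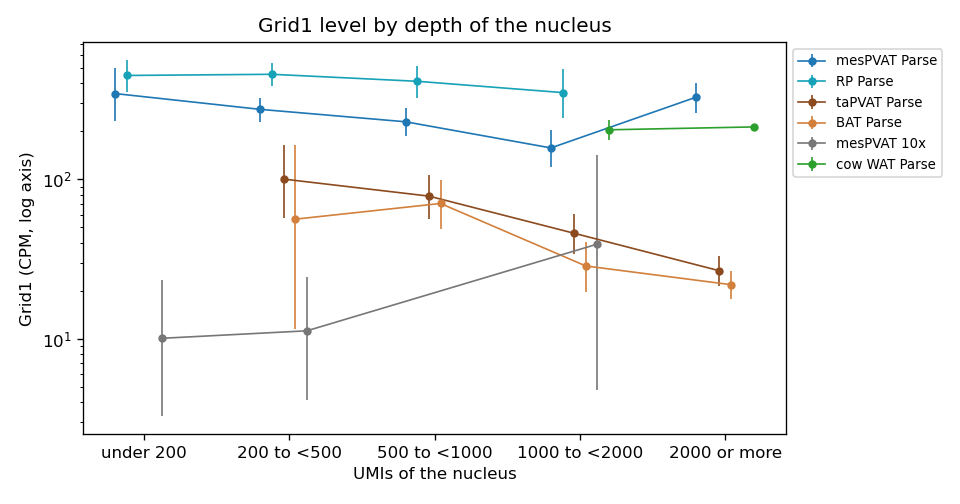
Grid1 level in CPM (log axis) against the depth of the nucleus, by library, with exact 95% Poisson intervals; bins with under 20 nuclei or no Grid1 UMI are left out. At 2000 or more UMIs the mesPVAT Parse point is at 327 and the taPVAT and BAT points at 26.7 and 21.8.

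In the white and the brown rat Parse libraries the members' levels followed the length of the gene. Per 100 kb of RefSeq span, Grid1 was at 33.1 CPM in mesPVAT, Grin2a at 33.1, Grm7 at 31.7, Grik1 at 31.6, Grik4 at 29.99, Grm8 at 29.8, Gria4 at 28.5 and Grik2 at 22.2. The lowest was Gria3, at 15.2. So the 6.93-fold range of raw levels in mesPVAT narrowed to 2.18-fold. It narrowed from 6.22 to 2.52-fold in RP, from 4.86 to 1.95-fold in taPVAT and from 9.33 to 3.55-fold in BAT. In RP the values per 100 kb ran from 25.8 (Gria3) to 65.1 (Grin2a). The rank correlation of level with span over the 9 genes was 0.933 in mesPVAT and 0.783 in RP, 0.833 in taPVAT and 0.817 in BAT. These points share 1 library each and are a description.

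Other long genes had levels of the same size. In mesPVAT, 334 autosomal genes of at least 400 kb that are not glutamate receptor genes had a median of 34.1 per 100 kb (quartiles 28.3 and 47.9), and 15 such X-linked genes had 15.9. Of at least 200 kb, as Gria3 has, 49 X-linked genes had a median of 16.5 against 41.1 for 935 autosomal genes. In BAT the quartiles of the autosomal genes of at least 400 kb lay further apart, at 3.94 and 33.6 around a median of 7.98, and the members other than Grik2 ran from 2.92 (Gria3) to 6.13 (Grin2a), with Grik2 at 10.4. The mean white over mean brown ratio of tested genes with a RefSeq span had a median of 1.05 for spans under 50 kb and 1.27 for 50 to 200 kb. It was 1.95 for 200 to 400 kb and 4.57 for at least 400 kb. The 10x over Parse ratio fell in the same order, from a median of 1.09 to 0.710, 0.550 and 0.212. Spans were matched for 51.7% of the genes in the rat Parse files and for 69.6% of those tested between white and brown. Genes without a span are in none of these groups by length, but are in the medians and shares of all genes.

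**Figure D4:**
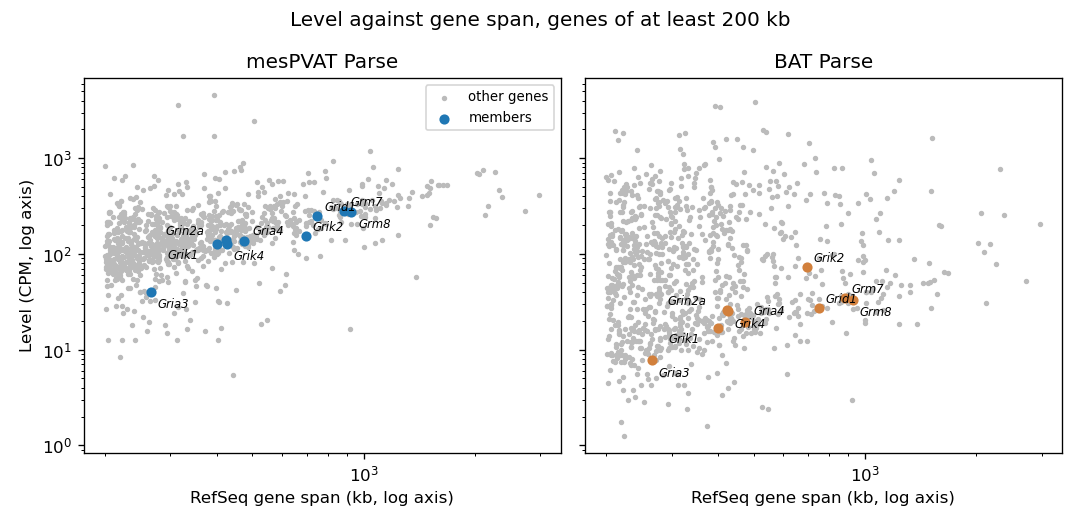
Level in CPM against RefSeq gene span in kb, both on log axes, for genes of at least 200 kb in mesPVAT Parse and BAT Parse, with the 9 members in colour and other genes in grey. In mesPVAT the grey points form a narrow band that holds the members, with Gria3 (40.4) low; in BAT the grey points spread upward and the members lie along the lower edge, with Grik2 (72.3) above the rest.

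By cell class, Grid1 was present in every named class of the white rat Parse libraries. Nuclei were clustered in each library without glutamate receptor genes and named from markers, and 36.1% of nuclei in mesPVAT Parse, 84.9% in RP, 51.1% in 10x, 7.77% in cow, 1.67% in taPVAT and 0 in BAT stayed unnamed. Grid1 in mesPVAT Parse was at 158 CPM (123 to 199.997) in adipocyte-like, 198 in endothelial-like, 225 in mural-like and 276 in progenitor-like (ASPC-like) nuclei and at 323 (271 to 383) in unnamed nuclei, a 2.04-fold range. In RP it was at 303 in adipocyte-like, 481 in ASPC-like and 428 in unnamed nuclei. In taPVAT Grid1 was at 30.1 in adipocyte-like and 29.8 in endothelial-like nuclei and reached 64.6 (40.5 to 97.8) in immune-like nuclei. In adipocyte-like nuclei alone, the lower white over higher brown ratio of Grid1 was 5.26 (3.74 to 7.41).

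In BAT, Grid1 was at 21.8 CPM (16.99 to 27.4) in adipocyte-like, 14.1 (8.70 to 21.5) in endothelial-like, 42.3 in mural-like and 43.3 in ASPC-like nuclei and at 110 (59.9 to 184) in immune-like nuclei, a 7.80-fold range. The immune-like value rests on 14 UMIs. Immune-like nuclei of BAT had Grm8 at 172 (108 to 261) and Grm7 at 133 (77.5 to 213), against 23.0 for both in adipocyte-like nuclei. Among classes of at least 50 nuclei, Gria4 and Grik2 were highest in another class of BAT. In taPVAT immune-like nuclei were highest for Grid1, Gria3, Grin2a and Grm8, and another class was highest for the other members. The share of all genes highest in immune-like BAT nuclei was not counted, so no result about the members is drawn from this order. These nuclei formed the BAT cluster with the lowest median depth, 843 UMIs. Over all BAT nuclei Grid1 was at 70.4 CPM at 500 to under 1000 UMIs and 21.8 at 2000 or more. The other 8 members together were at 570 and 184, and the part of depth in the immune-like levels was not tested. Gria4 was at 112 (88.4 to 140.4) and 146 (96.2 to 212) CPM in ASPC-like nuclei of taPVAT and BAT, against 8.65 (5.35 to 13.2) and 10.7 (7.47 to 14.9) in adipocyte-like nuclei. The ASPC-like level of Gria4 in mesPVAT Parse was 124 (77.6 to 187), which overlaps with both. In these nuclei the lower white over higher brown ratio of Gria4 was 0.848 (0.460 to 1.55), against 8.86 (5.52 to 14.3) in adipocyte-like nuclei.

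Grik2 was at 128 CPM in endothelial-like nuclei of both taPVAT (107 to 151) and BAT (111 to 148), against 18.1 and 19.0 in adipocyte-like nuclei. The endothelial-like level of Grik2 in mesPVAT Parse was 139.9 (103 to 185), a ratio to BAT of 1.09 (0.776 to 1.5). In BAT, 38 Schwann-like nuclei held 119 Grik2 UMIs, at 1211 (1003 to 1449) CPM, in 26 of the 38 nuclei. These 38 nuclei held 27.9% of the Grik2 UMIs of the clustered BAT nuclei. They were named from Scn7a (570 UMIs), Cdh19 (30), Erbb3 (18) and Sox10 (8).

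**Figure D5:**
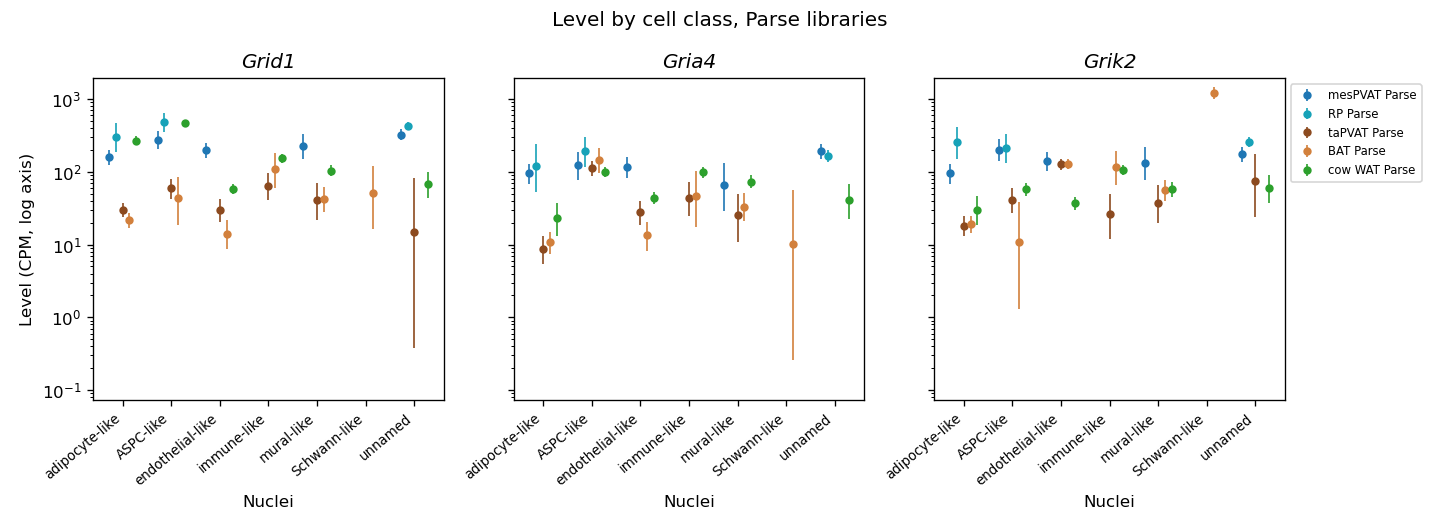
Level of Grid1, Gria4 and Grik2 in CPM (log axis) by cell class in the Parse libraries, with exact 95% Poisson intervals; classes with no UMI of the gene are not drawn. Grik2 in Schwann-like BAT nuclei (1211) and Gria4 in ASPC-like nuclei of both brown libraries (112 and 146) stand above the other brown classes.

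In cow, the range of Grid1 (GRID1) over classes was wider than in the white rat Parse libraries, but the classes compared were not the same. Those rat libraries had no immune-like class, were shallower and had more unnamed nuclei, and the part of this was not tested. GRID1 was at 471 CPM (441 to 503) in ASPC-like, 268 (231 to 310) in adipocyte-like and 152 in immune-like cow nuclei. It was at 104 in mural-like and 57.9 (48.9 to 68.1) in endothelial-like nuclei, an 8.14-fold range. ASPC-like nuclei held 55.4% of the GRID1 UMIs of the clustered cow nuclei. The ranges of the other 8 genes over the cow classes ran from 2.28-fold (GRIK1) to 4.36-fold (GRIA4). No cow gene spans were used here, so levels of different cow genes were not compared per length.

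The remaining glutamate receptor genes moved alike. Of 17 other subunits, 13 passed the filter on low values, 12 of these were at least 2-fold higher in white and 0 lower, beside the 44.3% of all genes. Grik5, a kainate subunit that needs a partner, was the 1 that did not pass, at 35.0 and 43.8 CPM in mesPVAT and RP against 24.5 and 24.4 in taPVAT and BAT. A subunit low in both brown libraries could enter this count only if it was high in white.

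Proteins that act with the receptors were mixed. Of 7 delta receptor partners 3 passed the filter and 2 were at least 2-fold higher in white, beside 44.3% of all genes. These 2 were Nrxn3 (7.16-fold) and Nrxn2 (3.21-fold). The cerebellins Cbln1 to Cbln4, the secreted ligands of delta receptors, were all under 5 CPM in every library. Of 24 auxiliary and scaffold proteins 22 passed and 13 were higher, with Cacng2, an AMPA receptor auxiliary subunit, at 7.88-fold. The 13 of 22 stood nearer to the 44.3% of all genes, and to the 63.2% of genes of at least 400 kb, than the receptor subunits did. The scaffold genes Dlg4 and Shank3 were at 0.360 and 0.484. Of 9 genes of glutamate supply and uptake 8 passed, 4 were higher and 1 was lower: Glul, the glutamine synthetase, at 29.6 and 30.8 CPM in mesPVAT and RP against 405 and 338 in taPVAT and BAT. These 4 of 8 were near the same 44.3%. Of 14 long neuronal genes 12 were at least 2-fold higher in white, beside 63.2% of genes of at least 400 kb and 44.3% of all genes.

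Neuron markers moved with the members. The 7 markers summed to 404 CPM in mesPVAT Parse, 675 in RP, 86.1 in taPVAT, 71.5 in BAT, 46.1 on 10x and 106 in cow, and all 5 that passed the filter were at least 2-fold higher in white, beside the 44.3% of all genes. The long marker Rbfox3 was at 130.4 and 257, while the short tubulin gene Tubb3 was at 3.62 and 13.01 in mesPVAT and RP. The lower white over higher brown ratio was 5.24 (4.19 to 6.57) for Rbfox3. It was 5.72 for Tubb3, with a wide interval (1.36 to 27.6), and 1.39 (0.254 to 5.07) for Syp. Tubb3 and Syp did not pass the filter on low values. The part of gene length in the marker ratios was not tested. Mesothelial markers summed to 114 and 94.6 CPM in mesPVAT Parse and RP, 23.3 and 11.6 in taPVAT and BAT, 951 on 10x and 15.7 in cow. All 4 that passed were at least 2-fold higher in white, beside the same 44.3%. The filter is a mean over the rat Parse libraries, so a marker low in both brown libraries passes only if it is high in white. The neuron and mesothelial counts were thus partly set by the filter. Of 12 adipocyte markers 8 were at least 2-fold lower in white, beside 6.3% of all genes. Neuron markers were not among those used to name clusters, so no cluster could be named neuronal. The part of these other cells in the result was not tested. In these nuclei, fewer cells of a type and less RNA per cell cannot be told apart.

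The 5 genes whose profile over the 5 rat libraries was most like that of Grid1, by distance of centred log2(CPM + 1) among 10478 genes, were Celf4 (0.125), Rit2 (0.149), Erich3 (0.149), Kcnh5 (0.166) and Nell1 (0.178). Among the members Grm8 ranked 13 and Grik1 39, while Gria3 ranked 1230 and Grik2 1251.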

How the data were processed

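The authors deposited raw UMI counts of each gene in each nucleus, with no normalization. Parse reads were separated by species and mapped by split-pipe (rat GRCr8, cow ARS-UCD1.3). For 10x, Cell Ranger was used and the stated genome is Rnor_6.0. For its own analysis the study marked doublets with scDblFinder and set limits on UMIs, genes, mitochondrial share and distance from the median depth. The deposited files still hold nuclei beyond the limits on UMIs, genes or mitochondrial share. UMIs were summed over all deposited nuclei and scaled to CPM. A gene was called when the lower white library was at least 2-fold over the higher brown one, with a mean of at least 5 CPM over the rat Parse libraries. Genes low in both brown libraries pass this filter only through the white ones. Intervals were exact Poisson, binomial and conditional binomial at 95%. For classes, nuclei with 100 to 15000 UMIs, at most 4500 genes and at most 3% mitochondrial UMIs, the study's limits, were kept. Nuclei beyond the study's limit on distance from the median of log UMIs or log genes, applied within each library, were left out too. The rest were clustered in each library by Leiden in Scanpy 1.11.5 (Python 3.11.15, scipy 1.17.1). The rule that names clusters from markers was revised after clusters were seen, and doublets were not removed. The scripts were tested on simulated data. The members and lists were chosen with earlier results of these data known. Genes named in the text are the members, the fixed lists, the nearest profiles and Ucp1. The study's text gives RP a higher median of transcripts than mesPVAT, while in the deposited counts mesPVAT Parse is deeper, at a median of 346 UMIs against 213. Both are called by their labels, and whether the labels are exchanged was not tested. Comparisons of RP with mesPVAT, and of 10x with Parse mesPVAT, rest on the labels. Values of some genes in the lists are not reported here.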

Additional observations from a re-analysis of the deposited data

How the results depend on the processing

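No paired analysis was possible because each group holds 1 library. The Grid1 white over brown ratio, 6.46, became 2.51 with median-of-ratios size factors, 9.60 for summed libraries and, in alternatives chosen after seeing the data, 1.78 per nucleus, 5.26 in adipocyte-like nuclei, 11.1 without mesPVAT Parse and 9.17 without taPVAT. It was within its counting interval in the other 8 of 14 alternatives. Leaving out RP or BAT could not change it, since mesPVAT and taPVAT set the ratio. The count of members higher in white, 9, became 4 with size factors and 0 per nucleus, and was within 1.5 times in the other 16 of 18. The cause of these moves was not tested. Leaving out a library, a fold limit of 1.5 and no filter on low values could not lower this count. The count lower in white was 0 in all 18, and the count lower on 10x was 9 in all 10. The fold limit of 1.5 and no filter could not lower the 10x count either. The Grid1 10x over Parse ratio became 0.0175 per nucleus. Thinning to 300 UMIs moved the Grid1 share to 12.8% in RP, 1.66% in taPVAT and 4.75% in cow, and no thinning to 10.4% in mesPVAT Parse, 11.5% in RP, 6.43% in taPVAT, 5.71% in BAT and 40.7% in cow. Naming each nucleus alone moved GRID1 in ASPC-like cow nuclei to 375 CPM. Grik2 in Schwann-like BAT nuclei ranged from 999.2 to 2256 over the namings that gave this class. In endothelial-like nuclei Grik2 ranged over the alternative namings from 102 to 157 CPM in taPVAT and from 126 to 189 in BAT. With 14 Grid1 UMIs on 10x, differences between its classes were not detectable at this depth.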
